A study of Mus musculus with 8 samples.

Results

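The genes described here encode proteins that lie along actin thin filaments or sit at their slow-growing ends. They are the tropomyosin genes Tpm1, Tpm2, Tpm3 and Tpm4, the caldesmon gene Cald1, the leiomodin gene Lmod1 and the tropomodulin genes Tmod1, Tmod2 and Tmod3. These 9 genes were chosen by name from the 19938 genes with a named probe set, and all 9 were measured. A probe set is a group of array probes summarised to a single value, and for genes with several the brightest on average was used. The arrays measured RNA of primary aortic smooth muscle cells from C57Bl6 mice at passage 3 to 4, all grown in DMEM with 10% FCS (fetal calf serum). The 4 control arrays are of cells without jasplakinolide, and the 4 treated arrays of cells given 100 nM jasplakinolide, both for 24 h. Jasplakinolide is a cell-permeable sponge compound that stabilises actin filaments and promotes their assembly. Whether the 4 replicates of a group are separate cultures or animals is not stated, so p-values cover only the spread between these arrays, which may be technical.

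Tropomyosins are coiled-coil proteins that polymerise head to tail along the actin filament and govern which motors and severing proteins can reach it. Caldesmon binds both actin and tropomyosin and restrains the myosin motor, and in smooth muscle it takes a place that troponin holds in striated muscle. Tropomodulins cap the pointed end of filaments that carry tropomyosin, whereas the related leiomodins nucleate new filaments. Tpm1, Tpm2, Tpm3 and Cald1 give rise to muscle and non-muscle splice forms. A single value per gene was used here, so the forms of a gene were not told apart.

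With jasplakinolide, RNA of Tpm2, a muscle tropomyosin, rose 1.70-fold and that of Lmod1, the smooth muscle leiomodin, rose 1.60-fold. The other 7 genes did not pass the test (limma, adjusted p under 0.05 over all 19938 genes), and none of the 9 fell. The 2 calls among 9 genes stand beside 0.436% of all genes called higher. Tpm1 and Cald1 were 1.12-fold and 1.09-fold higher in mean, and Tpm4 1.05-fold. In these 3 genes, as in Tpm2 and Lmod1, every treated array lay above every control array, which makes 5 of 9 genes. Over all genes, 3.62% had treated arrays that all lay above the controls. Tpm3, Tmod1, Tmod2 and Tmod3 had overlapping groups. The median log2 difference of the 9 genes was 0.07, against 0.01 over all genes. These are bulk samples, so a change in the share of a cell type and a change in RNA per cell cannot be told apart.

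**Figure D1:**
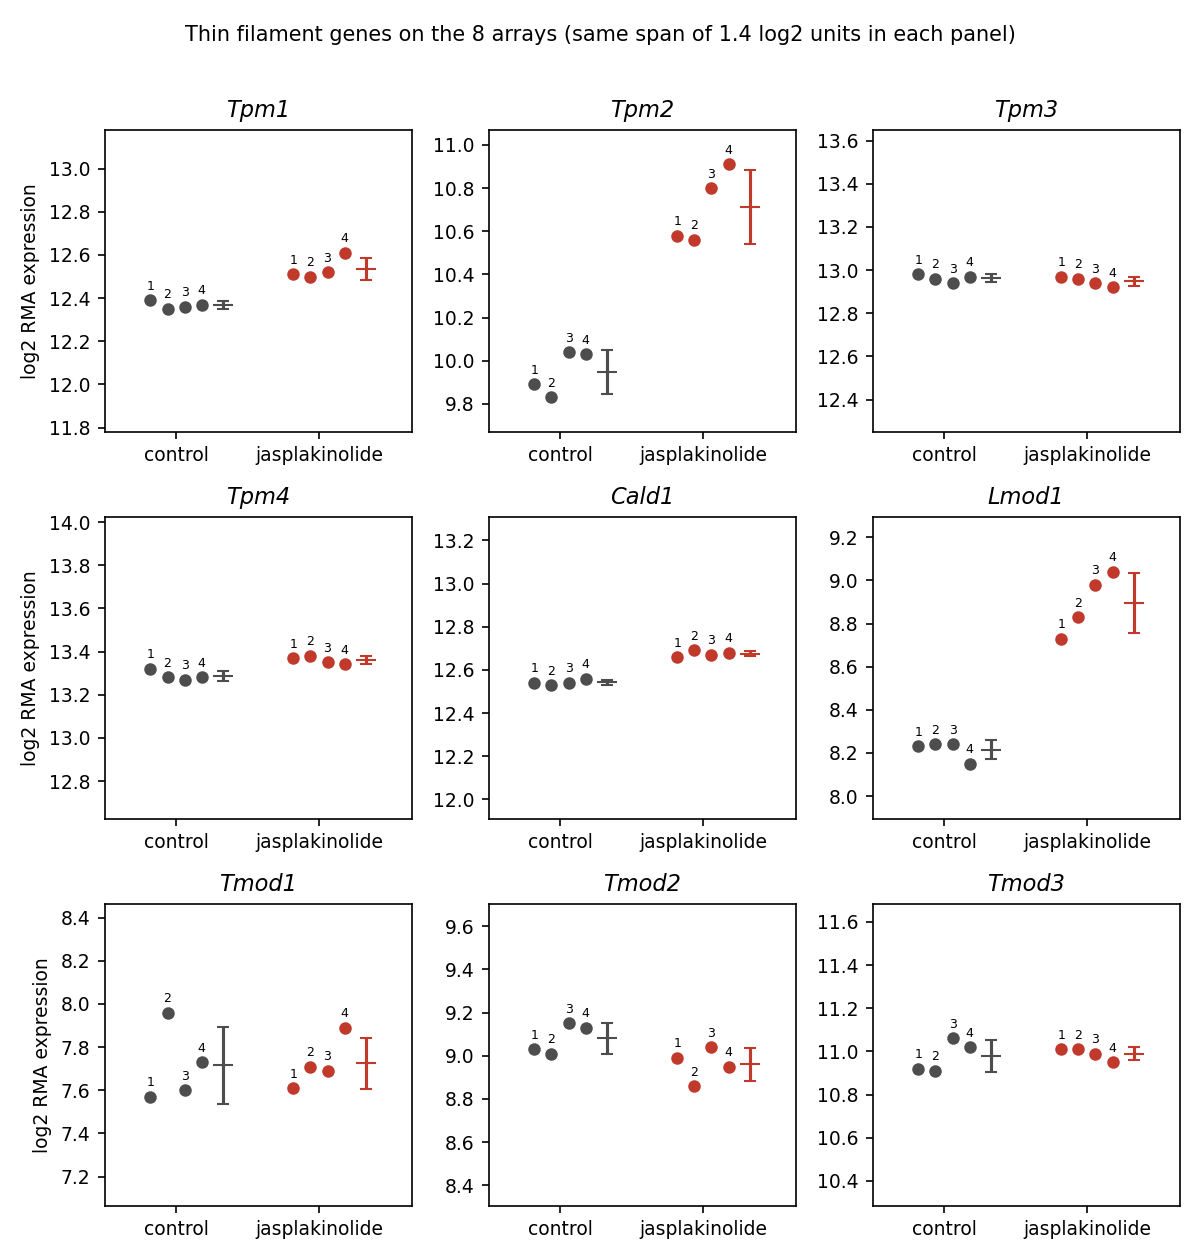
Log2 RMA expression of the 9 thin filament genes (y axis, the same span in each panel) in the control arrays (grey) and the jasplakinolide arrays (red), with points numbered by replicate. Horizontal marks and bars are group means and SD (n = 4 each). The treated arrays of Tpm2 (10.56 to 10.91) and Lmod1 (8.73 to 9.04) lie well above their controls, whereas those of Tpm3 and the 3 tropomodulin genes overlap with the controls.

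The cultures, labelled as smooth muscle cells, had bright signals for smooth muscle markers and also for endothelial markers. Of 7 smooth muscle markers 4 rose, beside 0.436% of all genes called higher, and none fell, and 4 were among the brightest 10% of genes. Of 12 endothelial markers 1 fell, beside 0.336% of all genes called lower, and none rose, and 7 were among the brightest 10%. With the replicate number as a block in the fit 3 fell, beside 1.08% of all genes. In 6 of the 12 every treated array lay below every control array, beside 3.29% of all genes, and 10 were lower in mean. The mean endothelial marker level was 10.79 to 10.83 log2 on control arrays and 10.59 to 10.70 on treated arrays. None of 10 striated muscle, 4 erythroid, 6 neuronal, 5 fibroblast or 5 macrophage markers passed the test. With the block 1 fibroblast and 1 macrophage marker fell. The treated arrays of 2 fibroblast markers, Dcn (-0.54 ± 0.12, SE) and Dpt (-0.46 ± 0.11), all lay below the controls. Those of 1 macrophage marker, Lyz2 (0.17 ± 0.05, SE), all lay above, beside 3.62% of all genes. Dcn, at 12.09 to 13.00 log2, was the 1 fibroblast marker among the brightest 10% of genes. All 10 striated muscle and all 4 erythroid markers were in the dimmer 50% of genes. The part of other cells in the changes below was not tested. Array medians lay between 7.30 and 7.39 log2. On the first principal component of the arrays (43.3% of the variance), control 2 (12.1) and jasplakinolide 4 (19.4) stood at one end, against -14.3 to 4.71 for the other 6. With 4 arrays per group, their number limits the precision.

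Of the tropomyosins, Tpm2 changed most. Tpm2 encodes beta-tropomyosin, a major form in contractile smooth muscle. Its log2 level was 9.89, 9.83, 10.04 and 10.03 on control arrays 1 to 4, and 10.58, 10.56, 10.80 and 10.91 on jasplakinolide arrays 1 to 4. The groups were separated by 0.514 between the highest control and the lowest treated array, and jasplakinolide 3 and 4 were the highest. The means were 9.95 ± 0.105 and 10.71 ± 0.172 log2 (SD, n = 4 each). The log2 difference was 0.76 ± 0.09 (SE), with a limma adjusted p of 0.00569. With any 1 array removed it stayed between 0.70 and 0.82 and past the threshold. Without control 2 and jasplakinolide 4 together it was 0.66 (limma adjusted p = 0.0162).

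Tpm1 encodes alpha-tropomyosin, the partner of beta-tropomyosin in muscle filaments. Its log2 level was 12.39, 12.35, 12.36 and 12.37 on the control arrays and 12.51, 12.50, 12.52 and 12.61 on the treated arrays. The groups did not overlap, and jasplakinolide 4 was the highest array. The log2 difference was 0.17 ± 0.04 (SE; limma adjusted p = 0.153), and its 95% interval before adjustment was 0.07 to 0.26. The call depended on the setting. Tpm1 passed when the test was limited to the brighter 50% of genes (limma adjusted p = 0.0416) and with an intensity trend and a robust prior for the spread (0.00806). In these fits 155 of 9969 genes and 0.968% of 19938 genes were called higher.

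Tpm4, a mainly non-muscle tropomyosin, lay at 13.32, 13.28, 13.27 and 13.28 log2 on the control arrays and at 13.37, 13.38, 13.35 and 13.34 on the treated arrays. The groups were apart by only 0.017, and the log2 difference was 0.07 ± 0.04 (SE; limma adjusted p = 0.688). A second Tpm4 probe set, which also names the gene Gm7809 and was therefore left out, differed by 0.01 on the log2 scale, with means of 13.29 ± 0.051 and 13.30 ± 0.029 (SD, n = 4 each).

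Tpm3 encodes gamma-tropomyosin, with many cytoskeletal forms. It stood at 12.98, 12.96, 12.94 and 12.97 log2 on the control arrays and at 12.97, 12.96, 12.94 and 12.92 on the treated arrays, and the groups overlapped throughout. The log2 difference was -0.01 ± 0.04 (SE; limma adjusted p = 0.964), with a 95% interval of -0.10 to 0.07. The 3 other Tpm3 probe sets differed by 0.03, 0.04 and 0.06. They were dimmer, with control means of 10.83, 9.84 and 9.40 log2. The difference of -0.01, the rank of Tpm3 below and, unless stated, its pair tests therefore rest on its brightest set alone. RefSeq lists 3 pseudogenes named after Tpm3, so its probe sets may share signal with near-identical copies. Tpm1, Tpm3 and Tpm4 were among the brightest 1.55% of genes, with mean ranks at 1.55%, 0.567% and 0.166%, and Tpm2 at 17.1%. Whether the brightness compressed their differences was not tested.

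The tropomyosin genes were next compared with each other. For each pair of genes, the difference between their log2 values on each array was compared between the groups with an exact permutation test over the 70 assignments of arrays (two-sided). In all, 12 pairs were tested, 6 among the tropomyosins and 6 among Lmod1 and the tropomodulins, and p-values were adjusted over the 12. The change in Tpm2 exceeded that in Tpm1 by 0.60 log2 units: Tpm1 minus Tpm2 went from 2.42 ± 0.11 to 1.82 ± 0.13 (SD, n = 4 each; exact p = 0.0286, adjusted 0.0343). It exceeded that in Tpm4 by 0.69 and that in Tpm3 by 0.78, with the same p-values, which are the smallest that the permutations can give. The other tropomyosins each varied by less than the 0.514 between the Tpm2 groups. These p-values therefore follow from the rise of Tpm2 and are not a further result. Tpm1 in turn exceeded Tpm3 by 0.18 and Tpm4 by 0.10 at the same exact p-values, and Tpm3 minus Tpm4 changed by -0.08. The Tpm1 and Tpm4 pair missed the threshold without any 1 of the 4 control arrays (exact test, adjusted p 0.0686 to 0.103). The Tpm3 and Tpm4 pair missed it when the probe sets of each gene were averaged (exact test, adjusted p = 0.249). With permutation only within replicate numbers, none of the 12 pairs passed (exact test, smallest adjusted p = 0.150), as the 16 assignments allow no p below 0.125. Such ratios show that changes in signal were unequal, not that any gene stayed level.

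Cald1 encodes caldesmon, and it did not pass the test. Its log2 level was 12.54, 12.53, 12.54 and 12.56 on the control arrays and 12.66, 12.69, 12.67 and 12.68 on the treated arrays. The groups did not overlap, and the arrays within each group lay close together (SD 0.013 and 0.012). The log2 difference was 0.13 ± 0.04 (SE; limma adjusted p = 0.230), with a 95% interval before adjustment of 0.05 to 0.22. Cald1 passed with the intensity trend and robust prior (limma adjusted p = 0.00502). With that setting 4 of the 9 genes rose, beside 0.968% of all genes.

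Lmod1 is the leiomodin of smooth muscle and a marker of its differentiated state. Its log2 level was 8.23, 8.24, 8.24 and 8.15 on the control arrays and 8.73, 8.83, 8.98 and 9.04 on the treated arrays. The controls lay close together and the treated arrays spread more, with 0.497 between the nearest arrays of the groups and with jasplakinolide 3 and 4 again highest. The means were 8.21 ± 0.044 and 8.89 ± 0.139 log2 (SD, n = 4 each). The log2 difference was 0.68 ± 0.07 (SE; limma adjusted p = 0.00275), the smallest adjusted p of the 9 genes. It ranged from 0.63 to 0.73 with single arrays left out, and passed the threshold in all 8 of those fits. Without control 2 and jasplakinolide 4 together it was 0.64 (limma adjusted p = 0.0159).

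The tropomodulins did not pass. Tmod1, best known from red cells and striated muscle, stood at 7.57, 7.96, 7.60 and 7.73 log2 on the control arrays and 7.61, 7.71, 7.69 and 7.89 on the treated arrays. Its highest values were those of control 2 and jasplakinolide 4, the arrays that also stood apart over all genes. The log2 difference was 0.01 ± 0.09 (SE; limma adjusted p = 0.993), and a second probe set gave -0.02. By mean level Tmod1 ranked at 52.6% of genes, among the dimmer genes, where all the striated muscle and erythroid markers also lay. Whether Tmod1 RNA was detected was not tested, so its small difference does not show a lack of change. The 95% interval of -0.20 to 0.22 was the widest of the 3 tropomodulins.

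Tmod2, the tropomodulin of neurons, was the gene with the largest difference downward. It stood at 9.03, 9.01, 9.15 and 9.13 log2 on the control arrays and 8.99, 8.86, 9.04 and 8.95 on the treated arrays. The groups overlapped, and the log2 difference of -0.12 ± 0.06 (SE) did not pass (limma adjusted p = 0.597). Tmod3, the broadly expressed member, stood at 10.92, 10.91, 11.06 and 11.02 on the control arrays and 11.01, 11.01, 10.99 and 10.95 on the treated arrays. Its difference was 0.01 ± 0.05 (SE; limma adjusted p = 0.980), with a 95% interval of -0.10 to 0.12.

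**Figure D2:**
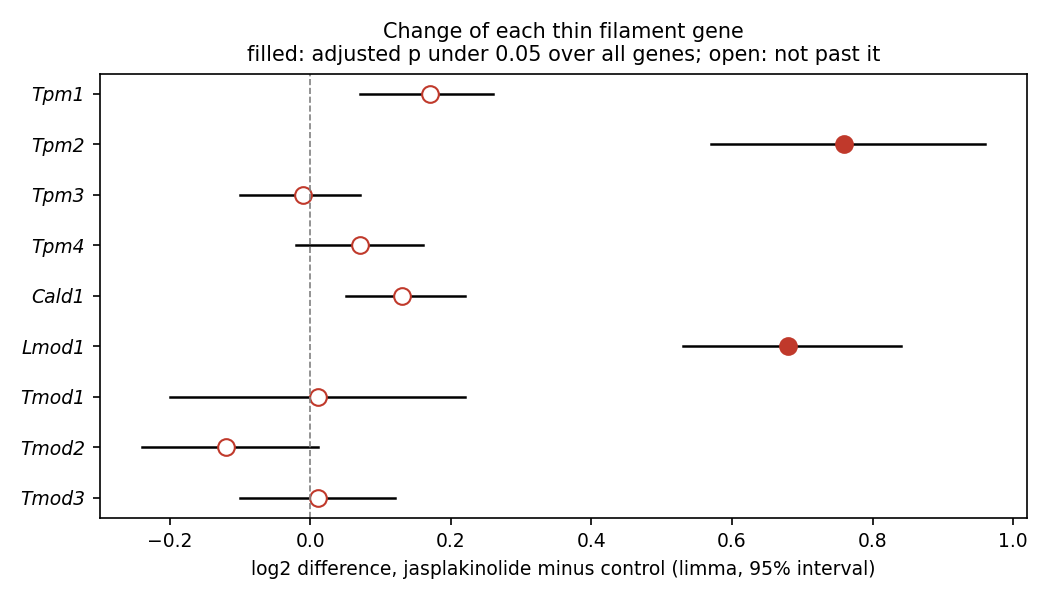
Log2 difference between jasplakinolide and control (x axis, limma, n = 4 arrays per group) for the 9 genes, with the 95% interval before adjustment as a line. Filled points passed an adjusted p of 0.05 over all genes. Only Tpm2 (0.76) and Lmod1 (0.68) are filled, and the intervals of Tpm3, Tpm4 and the tropomodulins include 0.

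Lmod1 was compared with the tropomodulins in the same way, and these pairs too did not pass with permutation within replicate numbers. The change in Lmod1 exceeded that in Tmod1 by 0.67, that in Tmod3 by 0.67 and that in Tmod2 by 0.80 log2 units (exact permutation test p = 0.0286 and adjusted p = 0.0343 for each). Lmod1 minus Tmod1, for example, went from 0.50 ± 0.19 to 1.17 ± 0.08 (SD, n = 4 each). Tmod1 was among the dimmer genes, so this pair does not show that Tmod1 RNA stayed level. Each tropomodulin varied by less than the 0.497 between the Lmod1 groups. The p-values of the Lmod1 pairs therefore follow from the rise of Lmod1 and are not a further result. Among the tropomodulins, Tmod2 minus Tmod3 changed by -0.13 (exact p = 0.0286, adjusted 0.0343), and this pair missed the threshold without any 1 of the 4 control arrays (exact test, adjusted p 0.0686 to 0.0762). The pairs of Tmod1 with Tmod2 (0.13; exact p = 0.343, adjusted 0.374) and with Tmod3 (-0.00096; exact p = 0.971, adjusted 0.971) did not pass.

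Tpm2 and Lmod1 had like profiles over the arrays. After centring each gene on its mean over the 8 arrays, the root mean square distance between them was 0.0991 log2 units, and Lmod1 was number 5 of all genes by nearness to Tpm2. The nearest to Tpm2 were Tgfb3, a ligand of the transforming growth factor family (0.0526), Hspb6, a small heat shock protein of muscle (0.0795), and Myh11, the smooth muscle myosin heavy chain (0.0886). The nearest to Lmod1 were Sync, a muscle protein of the intermediate filament family (0.0508), Htra1, a secreted serine protease (0.0598), and Tgfb3 (0.0836). Tgfb3 stood at 10.69 ± 0.073 on control and 11.39 ± 0.213 log2 on treated arrays (SD, n = 4 each). The log2 differences of these 5 genes, 0.63 to 0.81, follow from choosing them by nearness to a gene that rose. The 8 arrays are the only points behind these distances, which are given as a description.

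**Figure D3:**
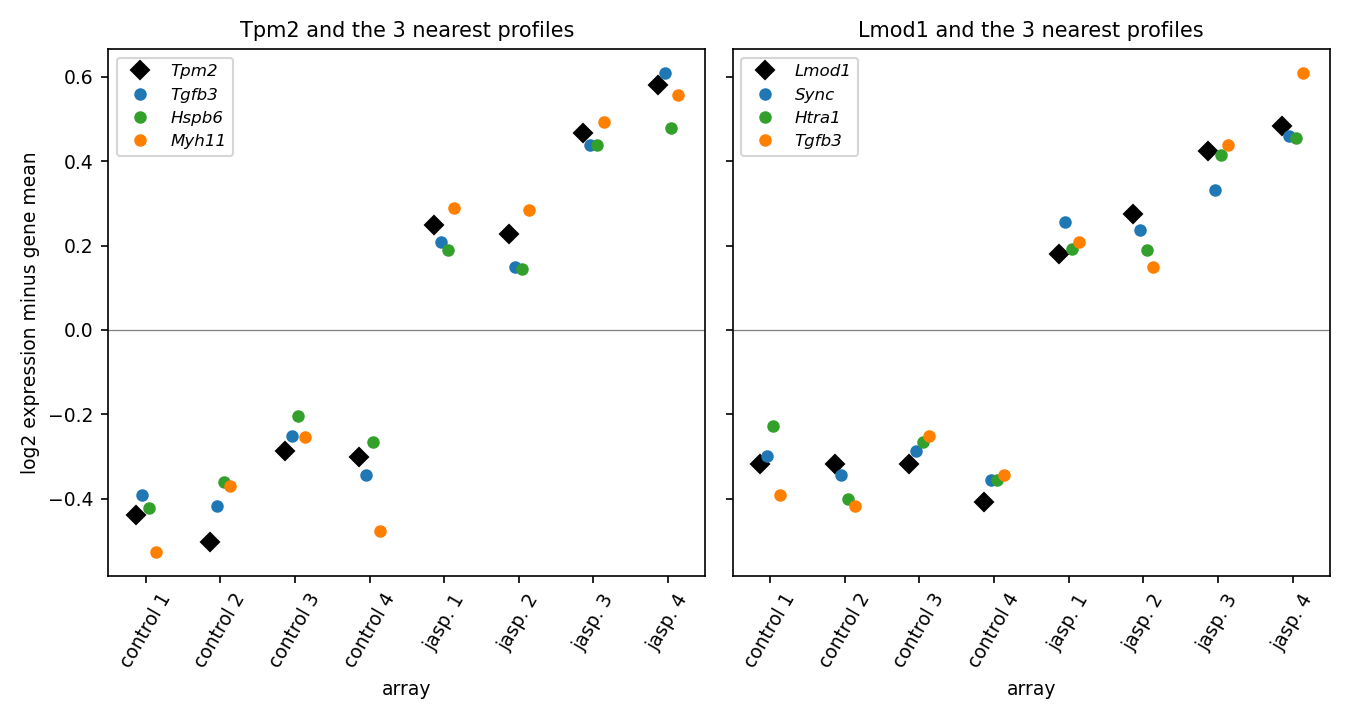
Log2 expression minus each gene's mean over the 8 arrays (y axis) on each array (x axis; jasp. is jasplakinolide) for Tpm2 and Lmod1 (black diamonds) and the 3 genes nearest to each (coloured points). All points are below 0 on the control arrays and above 0 on the treated arrays, and most are highest on jasplakinolide 3 and 4.

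The upstream sequences of Tpm2 and Lmod1, the genes that rose, are shown with those of Tpm1 and Cald1, the next largest differences. They are the 250 bases before the annotated start, from RefSeq (build GRCm38.p6), printed 5′ to 3′ in lower case with any MCAT element in capitals. The MCAT element is a binding site of TEAD factors found in many muscle promoters, searched as CATTCC on both strands. For Cald1, the first of its windows in the table is shown.
Lmod1 (chr1:135324563-135324812, plus strand): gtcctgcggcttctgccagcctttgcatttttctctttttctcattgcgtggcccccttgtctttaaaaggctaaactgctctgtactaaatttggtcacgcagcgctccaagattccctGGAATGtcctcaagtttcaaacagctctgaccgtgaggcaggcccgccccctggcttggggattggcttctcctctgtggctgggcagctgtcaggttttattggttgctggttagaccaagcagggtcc
Tpm2 (chr4:43523555-43523804, minus strand): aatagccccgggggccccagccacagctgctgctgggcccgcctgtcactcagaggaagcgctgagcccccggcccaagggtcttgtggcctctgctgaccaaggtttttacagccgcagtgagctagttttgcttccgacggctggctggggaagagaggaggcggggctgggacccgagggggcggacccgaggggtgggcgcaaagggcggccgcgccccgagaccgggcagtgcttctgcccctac
Tpm1 (chr9:67049214-67049463, minus strand): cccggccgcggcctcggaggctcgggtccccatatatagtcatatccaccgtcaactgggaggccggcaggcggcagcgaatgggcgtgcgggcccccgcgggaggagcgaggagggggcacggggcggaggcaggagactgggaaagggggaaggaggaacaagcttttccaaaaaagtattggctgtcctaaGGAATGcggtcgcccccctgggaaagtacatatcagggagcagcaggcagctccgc
Cald1 (chr6:34598254-34598503, plus strand): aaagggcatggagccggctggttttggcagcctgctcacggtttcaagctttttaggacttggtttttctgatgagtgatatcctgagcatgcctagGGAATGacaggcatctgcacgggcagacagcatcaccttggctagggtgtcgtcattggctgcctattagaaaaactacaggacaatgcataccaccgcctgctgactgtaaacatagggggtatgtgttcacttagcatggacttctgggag
An MCAT match lay 130 bases before the start in Lmod1, 56 in Tpm1 and 153 in Cald1, counted to its first base. The Tpm2 window and the second Cald1 window, not printed, held none. Windows of 8 of the 9 genes were in the table, 11 in all, and 4 of the 11 had an MCAT match, that of Tmod1 being the other, beside 12.6% of all 32851 windows. The CArG box, the site of serum response factor, has 10 letters and was found in 0 of the 11 windows, beside 1.47% of all windows. With 1 mismatch allowed, a search added after the data had been seen, it matched in 5 of the 11 windows, those of Lmod1 and Tpm1, the printed one of Cald1 and both of Tpm3, beside 17.5% of all windows. A match describes the letters and is neither a shown site nor a cause, and no match says only that these letters are not in this window.

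Among 41 other measured genes of actin thin filaments and their ends, 5 rose, 36 missed the threshold and none fell. Over all genes 0.436% were called higher and 0.336% lower. The list's median log2 difference was 0.07. The 5 were Cnn1 (1.34 ± 0.07, SE), which encodes calponin, Acta1 (1.26 ± 0.13), Actg2 (0.93 ± 0.10) and Acta2 (0.25 ± 0.04), the skeletal, enteric and vascular muscle actins, and Tagln (0.55 ± 0.04), transgelin. Their limma adjusted p-values ran from 0.000254 to 0.0337. Acta2 lost its call whichever array was left out (limma adjusted p 0.0593 to 0.128). The other 4 kept theirs in all 8 such fits. Cnn1, Acta2 and Tagln were also among the smooth muscle markers counted above as risen. Nexn encodes an actin-binding protein of muscle and Cap2 a cyclase-associated protein. In the main fit they differed by 0.50 ± 0.13 and 0.39 ± 0.08 (SE) and did not pass (limma adjusted p = 0.16 and 0.0683). With the replicate number as a block, both also passed (limma adjusted p = 0.0134 and 0.0249), beside 0.813% of all genes called higher in that fit.

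None of 8 troponin genes, the thin filament regulators of striated muscle, passed, and their median log2 difference was 0.01. Of these 8, 5 were in the dimmer 50% of genes and none was among the brightest 10%. The leiomodins of striated muscle, Lmod2 and Lmod3, and the skeletal tropomodulin Tmod4 differed by 0.15 ± 0.10, 0.03 ± 0.10 and -0.01 ± 0.07 (SE), and none passed. All 3 were in the dimmer 50% of genes. Their group means of 6.32 to 6.59 log2 lay below 6.76, under which 95% of 1027 olfactory receptor genes fell. The barbed-end capping genes Capza1, Capza2 and Capzb differed by -0.01 ± 0.05, -0.04 ± 0.04 and 0.06 ± 0.04, and the actin-binding gene Ablim1 by -0.29 ± 0.06 (SE; limma adjusted p = 0.0660).

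**Figure D4:**
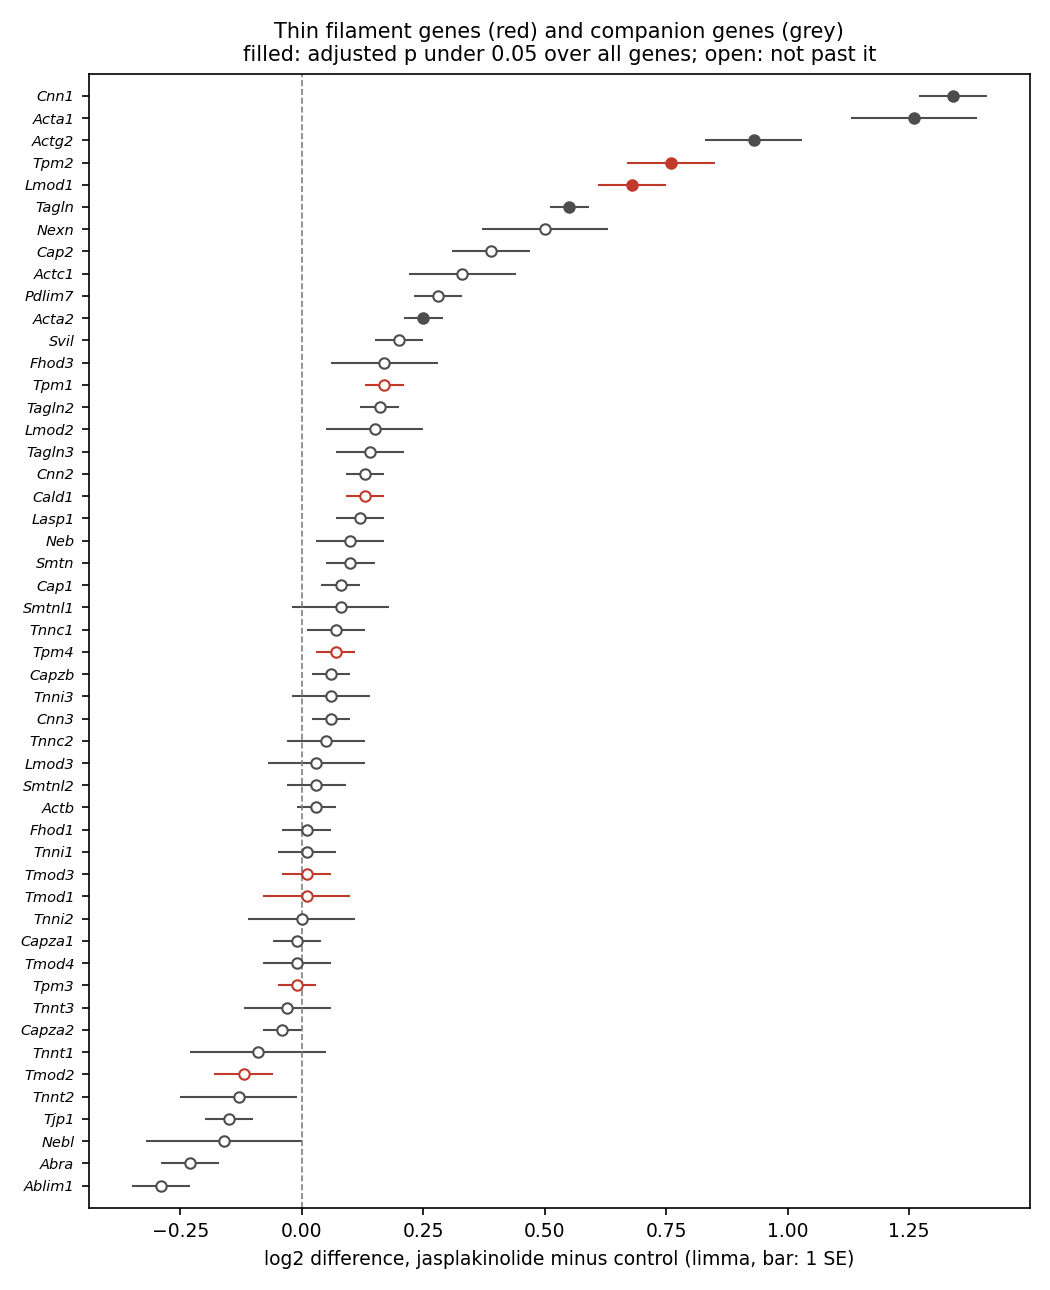
Log2 difference between jasplakinolide and control (x axis, limma, bars 1 SE, n = 4 arrays per group) for the 9 thin filament genes (red) and the 41 companion genes (grey), in order of size. Filled points passed an adjusted p of 0.05 over all genes. Tpm2 and Lmod1 lie between Actg2 (0.93) and Tagln (0.55).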

How the data were processed

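The authors deposited log2 values for 35556 probe sets on 8 arrays. Per the submitters' processing notes they used RMA and Affymetrix Expression Console, with versions not given in the sources used here. RMA equalises array distributions, so a shift shared by most genes would not show. Probe sets with 1 gene symbol (21789) gave 19938 genes; the 1621 with several symbols and the 12146 without any were not used.

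The groups were tested with limma 3.58.1 (R 4.3.3; lmFit, eBayes, two-sided, Benjamini-Hochberg over all genes). Pairs of genes were compared by exact permutation. No dim genes were removed and no detection calls were used. The fit was tested on data simulated from the gene means and spreads of this comparison (19938 genes). It recovered 21.4% of genes changed by 0.25 log2 units and 91.2% of those changed by 0.5. The simulated noise was independent between arrays, without the shared deviations described below, so recovery in the real data may differ.

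Members, lists and rules were chosen with earlier results of these data known. Named genes are the 9 members, companion genes past the test with Acta2, Tagln and Cnn1, and the 3 nearest profiles of each member that passed. Nexn, Cap2, Ablim1, Dcn, Dpt, Lyz2, the capping genes, Lmod2, Lmod3 and Tmod4 were named after their values were seen. Olfactory receptors as a dim reference were also added later.

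Both groups carry replicate numbers 1 to 4. Across genes, arrays of the same number deviated together from their group means in each of the 4 pairs (r = 0.241 to 0.563). That criterion rests on the data and not the labels. Arrays of different numbers gave r = -0.618 to 0.521, the highest for control 2 with jasplakinolide 4. This was above control 2 with jasplakinolide 2 (0.241) and control 4 with jasplakinolide 4 (0.443). The numbers may therefore pair the samples, but this is not settled. The main fit and the exact tests were kept without the pairing, and values with it stand beside results whose call it changed. Alternatives were the replicate block, median centring, a second quantile normalization, the brighter 50% of genes, array weights, a robust prior with intensity trend, averaging the probe sets of each gene and leaving out each array. Leaving out control 2 and jasplakinolide 4 together was chosen after seeing the data.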

Additional observations from a re-analysis of the deposited data

Results flagged for a closer look

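In Lmod1, control 4 (8.15 log2) lay apart from the other 3 control arrays (8.23 to 8.24), further than expected from 4 values by Dixon's criterion at the 95% level. The gap ran away from the treated arrays, and without control 4 the log2 difference was 0.66 (limma adjusted p = 0.0197). Of 18 groups checked this was the only one, and chance flags about 1 group in 20.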

How the results depend on the processing

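The rises of Tpm2 and Lmod1 kept their call under every alternative run (Tpm2 0.65 to 0.82, Lmod1 0.63 to 0.73). The count of thin filament genes that rose was 4 with the intensity trend and a robust prior together, beside 0.968% of all genes. It was 3 among the brighter 50%, where Tmod1 was not tested, beside 155 of all 9969 genes. None fell under any setting. The count was 2 with the replicate block (limma, Tpm2 adjusted p = 0.00887, Lmod1 0.0151), beside 0.813% of all genes. It was also 2 in each fit with an array left out. Of the companion genes 5 rose in the main fit, and 8 among the brighter 50%, beside 155 of all 9969 genes tested there. With that trend and prior 9 rose, beside 0.968% of all genes. In each fit with an array left out 4 rose, beside 35 to 67 of all 19938 genes. With the second quantile normalization, the brighter 50%, that trend and prior or array weights, 1 companion gene, Ablim1, fell. Over all genes 145, 141, 165 and 234 were called lower in these fits. Over all genes, 154 were called, 377 with the block, 276 after the second quantile normalization, 296 among the brighter 50%, 358 with that trend and prior, 457 with array weights and 43 to 150 with an array left out. The higher and lower calls were 87 and 67, and they were 131 and 145 after the second quantile normalization and 69 and 34 after median centring.

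Of the 12 pairs 10 passed, 8 to 10 with an array left out and 0 with permutation within replicate numbers, where 16 assignments allow no p below 0.125. Among those that passed, the pairs with Tpm2 or Lmod1 repeat the rises of those genes. Differences near 0 changed sign without any call: Tpm3 to 0.03 and Tmod1 to -0.0048 with the mean of probe sets, and Tmod1 to -0.02 and Tmod3 to -0.0024 with array weights. With arrays left out, Tmod1 ran from -0.05 to 0.09, Tmod3 from -0.01 to 0.04 and Tmod1 minus Tmod3 from -0.07 to 0.10; the latter was 0.0024 after the second quantile normalization. The cause of these shifts was not tested. Acta2 also missed the threshold after median centring (adjusted p = 0.107). Detection calls were not used, so apart from the olfactory receptor reference signal over background was not assessed.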
